A study of Mus musculus with 6 samples.

Results

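Blimp-1, BCL6, BHLHE40 and 7 further transcription factors that shape effector CD8 T cells were followed in cytotoxic T lymphocytes (CTL) that expressed GFP-KLF2 or an empty vector. The set was given as a list of 10 genes (Prdm1, Bcl6, Id2, Zeb2, Bhlhe40, Irf4, Irf8, Ikzf2, Ikzf3 and Runx2), and all probe sets annotated to exactly 1 of them were taken. This gave 22 probe sets of 9 genes, out of 45037 probe sets and 18193 genes on the array. No such probe set was found for Runx2, whose expression was not analysed here. T cells of P14 LCMV TCR transgenic C57BL/6 mice, 8 to 12 weeks old, carry a receptor for the viral peptide gp33-41. Splenocytes of both groups received this peptide for 48 hours, a retrovirus at 18 hours and then IL-2 for another 48 hours, and on day 4 the GFP-positive cells were sorted. The GFP-KLF2 arrays (n = 3) hold cells in which the retrovirus drives a fusion of GFP with the zinc finger factor KLF2, and the evGFP arrays (n = 3) hold cells with the vector and GFP alone. Peptide, IL-2, retrovirus and GFP are thus shared by both groups, and KLF2 came from a retroviral vector in cells that normally lose it on activation. The comparison asked which transcripts of CTL change when KLF2 is kept present. Biotinylated cRNA from 250 ng of total RNA was hybridised to Affymetrix 3' expression arrays of the mouse genome.

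These factors are known as switches in the fate of activated T cells. Blimp-1, encoded by Prdm1, is a zinc finger repressor that promotes terminal effector differentiation in CD8 T cells and antibody secretion in plasma cells. BCL6 is a repressor of the opposite character, which is linked to memory CD8 T cells and to follicular helper T cells, and in B cells and helper T cells Blimp-1 and BCL6 repress each other. ID2 and ZEB2 favour effector cells, IRF4 follows the strength of the antigen signal, BHLHE40 and IRF8 are induced on activation, and Helios (Ikzf2) and Aiolos (Ikzf3) are members of the Ikaros family.

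Promoters of 3 of these genes are shown because Prdm1 and Irf8 rose in GFP-KLF2 arrays and Bcl6 missed the threshold narrowly in its brighter probe set. Bhlhe40 and Ikzf3 also rose, but their promoters were not analysed here. Each stretch holds 250 bases before and 50 after an annotated start in RefSeq on GRCm38.p6, read 5′ to 3′ on the strand of the gene. Capitals mark CACCC (or GGGTG on the other strand), the short core bound by KLF factors, and TTCNNNGAA, the palindrome bound by STAT factors, which was added to the search after the expression values were seen. The Prdm1 stretch lies at chr10:44458699-44458998 on the minus strand, the Irf8 stretch at chr8:120736108-120736407 on the plus strand, and the Bcl6 stretches at chr16:23981234-23981533 and chr16:23988803-23989102 on the minus strand. The Bcl6 stretches are named first and second by coordinate, so on this strand the second lies upstream of the first.
Prdm1: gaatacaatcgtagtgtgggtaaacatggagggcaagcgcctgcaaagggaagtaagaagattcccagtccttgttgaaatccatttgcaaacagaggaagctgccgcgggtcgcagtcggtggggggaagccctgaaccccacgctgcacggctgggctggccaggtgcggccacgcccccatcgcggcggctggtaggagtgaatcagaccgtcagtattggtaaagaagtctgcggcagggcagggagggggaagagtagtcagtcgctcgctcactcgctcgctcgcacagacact
Irf8: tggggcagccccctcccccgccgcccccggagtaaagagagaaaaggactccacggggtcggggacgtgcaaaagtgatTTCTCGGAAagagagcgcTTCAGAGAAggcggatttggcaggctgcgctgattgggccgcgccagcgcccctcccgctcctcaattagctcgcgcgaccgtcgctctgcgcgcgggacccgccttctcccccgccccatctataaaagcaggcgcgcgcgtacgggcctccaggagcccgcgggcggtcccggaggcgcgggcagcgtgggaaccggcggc
Bcl6, first start: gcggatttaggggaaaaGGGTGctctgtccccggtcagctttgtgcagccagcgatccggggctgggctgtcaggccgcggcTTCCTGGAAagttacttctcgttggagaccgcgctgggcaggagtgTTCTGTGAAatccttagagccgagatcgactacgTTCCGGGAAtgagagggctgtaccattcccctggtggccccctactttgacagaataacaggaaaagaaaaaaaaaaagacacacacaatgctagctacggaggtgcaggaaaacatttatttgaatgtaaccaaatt
Bcl6, second start: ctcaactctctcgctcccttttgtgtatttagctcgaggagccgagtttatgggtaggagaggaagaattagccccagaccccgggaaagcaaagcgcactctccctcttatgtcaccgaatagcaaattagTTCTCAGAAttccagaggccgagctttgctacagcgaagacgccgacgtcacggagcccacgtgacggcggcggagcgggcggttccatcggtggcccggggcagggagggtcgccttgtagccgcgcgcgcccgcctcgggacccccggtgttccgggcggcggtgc

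The table held 12 promoters of 7 of the listed genes, Runx2 included, with several starts for Bcl6, Irf8 and Zeb2. CACCC stood in 6 of the 12, against 57.5% of all 32851 promoters, both strands searched. GGGCGG, a GC box, stood in 7 of 12 (35.7% of all promoters) and CCACACCC, a longer KLF-type element, in 0 of 12 (3.56%). TTCNNNGAA stood in 5 of 12 (8.30%): 3 matches in the first and 1 in the second Bcl6 promoter, 2 in the Irf8 promoter shown, and 1 in each of a pair of overlapping Zeb2 stretches. Both Zeb2 matches are the same site, and by gene 3 of 7 held the motif. The Prdm1 stretch held none of these motifs, and neither did the other Irf8 promoter (chr8:120738389-120738688), which is not shown. Promoters of Bhlhe40, Ikzf2 and Ikzf3 were not analysed here. Matches describe these letters only, and binding was not measured.

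The arrays were alike within groups, with correlations over probe sets of 0.993 to 0.996 against 0.982 to 0.990 between groups. The probe set of Klf2 gave 9.83, 9.67 and 8.74 in GFP-KLF2 arrays and 10.99, 10.37 and 8.80 in evGFP arrays (log2 intensity). The study states that this probe set reads sequence that the construct lacks, so it does not check the labels. All 9 measured CD8 T cell markers lay at a mean log2 intensity of 8.14 or more. Throughout, intensities are the deposited values after log2, the log2 fold change is GFP-KLF2 minus evGFP, and a gene is said to have risen or fallen where limma's 2-sided adjusted p (Benjamini-Hochberg over all probe sets) was under 0.046. With 3 arrays a group an exact permutation test of a single gene cannot give a 2-sided p under 0.1. RNA of sorted pools was measured, so that more cells with a transcript and more transcript per cell cannot be told apart.

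Of the 9 measured genes, 4 rose in GFP-KLF2 arrays (Prdm1, Bhlhe40, Irf8 and Ikzf3) and 0 fell, against 6.22% of all genes that rose and 8.35% that fell. Among genes with a mean log2 intensity of at least 6, 4 of 7 rose, against 9.87%. The median log2 fold change of the 9 genes was 0.67, and that of all genes was -0.01. Without GFP-KLF2 replicate 1 or 2 or evGFP replicate 1 or 2, only Prdm1 and Bhlhe40 of the 9 still passed. Counts with an array left out are given here and below without the share of all genes under the same omission. They show how single calls hold, and not whether these genes differ from others. At an unadjusted p under 0.05, 7 of 9 passed, against 29.7% of all genes in either direction. All GFP-KLF2 arrays lay above all evGFP arrays for 5 of the 9, against 14.3% of all genes. By probe set, 5 of 22 rose and 0 fell, against 4.76% of all probe sets that rose.

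**Figure D1:**
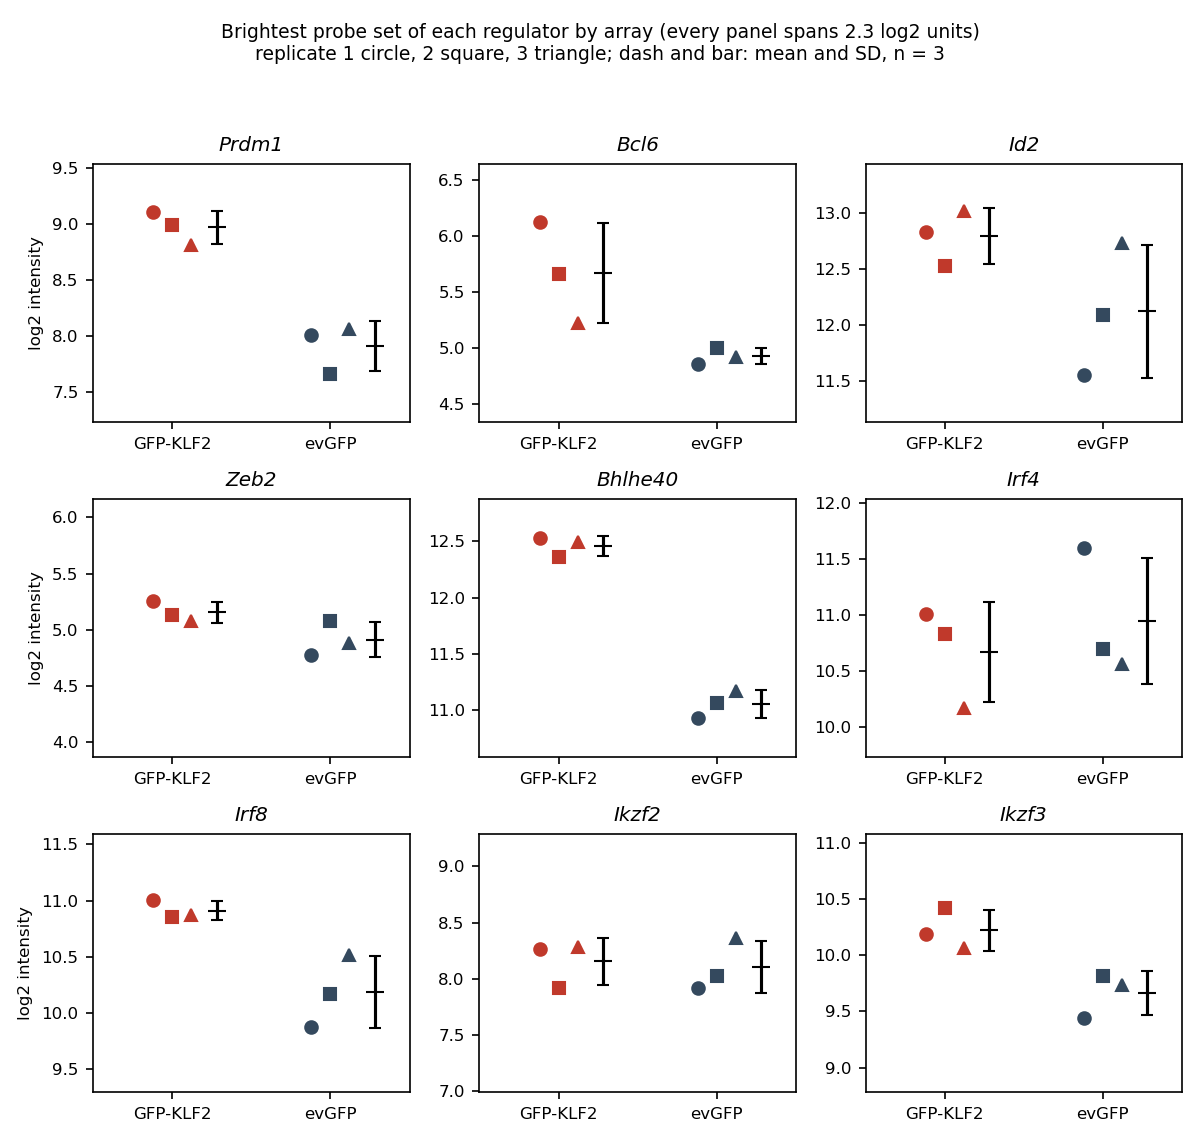
Log2 intensity (vertical axis) of the brightest probe set of each of the 9 genes, GFP-KLF2 arrays in red on the left and evGFP arrays in blue on the right of each panel. Symbols mark the replicate number, and dashes with bars the mean and SD of 3 arrays. Prdm1 and Bhlhe40 have wide gaps between the groups, Id2, Zeb2, Irf4 and Ikzf2 overlap, and the evGFP arrays of Irf8 spread from 9.88 to 10.51 while its GFP-KLF2 arrays lie between 10.85 and 11.01.

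Among the repressors, Prdm1 (Entrez gene 12142) gave 9.10, 8.99 and 8.81 in GFP-KLF2 arrays and 8.01, 7.66 and 8.07 in evGFP arrays. The groups did not overlap, and the lowest GFP-KLF2 array stood well above the highest evGFP array. The gene was 2.08-fold higher in GFP-KLF2 arrays, at 8.97 ± 0.15 against 7.91 ± 0.22 (log2 intensity, SD, n = 3 each), with a log2 fold change of 1.05 (95% confidence interval 0.75 to 1.36, standard error 0.13, limma adjusted p = 0.00384). In the replicate pairs the difference was 1.09, 1.33 and 0.74. Prdm1 passed with any single array left out, with adjusted p of 0.00681 to 0.0188.

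Bhlhe40 (Entrez gene 20893), a basic helix-loop-helix repressor, showed the largest log2 fold change among the 9 genes. Its probe set gave 12.53, 12.36 and 12.49 in GFP-KLF2 arrays and 10.93, 11.07 and 11.17 in evGFP arrays. All arrays of a group lay close together, and the gap between groups was several times the spread within them. The mean was 12.46 ± 0.09 in GFP-KLF2 and 11.05 ± 0.12 in evGFP arrays, which is 2.65-fold (log2 fold change 1.41, standard error 0.09, 95% confidence interval 1.19 to 1.62, limma adjusted p = 0.000502). Each replicate pair showed the rise, by 1.61, 1.29 and 1.32, and the adjusted p was at most 0.00559 with any array left out. Bhlhe40 and Prdm1 were the 2 of 9 genes that rose at least 2-fold, against 2.23% of all genes.

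Bcl6 (Entrez gene 12053) was dim, with means over the 6 arrays of 5.30 and 5.22, and its 2 probe sets gave different results. The brighter gave 6.12, 5.66 and 5.23 in GFP-KLF2 arrays and 4.86, 5.003 and 4.92 in evGFP arrays. The evGFP arrays were nearly level while the GFP-KLF2 arrays spread widely, without overlap between groups. The log2 fold change was 0.74, with an error of 0.20 (SE) and a 95% confidence interval of 0.27 to 1.21, and missed the threshold (limma adjusted p = 0.0556), but passed with the replicate number as a block (0.0335). The pairs differed by 1.26, 0.66 and 0.31. The dimmer gave 5.33, 5.25 and 5.04 in GFP-KLF2 arrays and 5.15, 5.32 and 5.23 in evGFP arrays, a log2 fold change of -0.03 (95% confidence interval -0.26 to 0.20, adjusted p = 0.916). The groups overlapped there, and no difference was detectable. Without GFP-KLF2 replicate 3, the lowest of its group, the brighter probe set passed with 0.96 (adjusted p = 0.0128).

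Zeb2 (Entrez gene 24136), which encodes a zinc finger repressor that promotes terminal effector differentiation, was dim in all 5 of its probe sets, with means over the 6 arrays of 3.29 to 5.03. The lower quartile of all probe sets lay at 4.18 to 4.25 in single arrays, so that 3 of the 5 means lie below it and the other two above it, at 4.82 and 5.03. Its brightest probe set gave 5.26, 5.14 and 5.08 in GFP-KLF2 arrays and 4.77, 5.08 and 4.88 in evGFP arrays. The log2 fold change of 0.24 (95% confidence interval 0.01 to 0.48, limma adjusted p = 0.191) did not pass, and those of the other probe sets were -0.10 to 0.50. Without evGFP replicate 3, the probe sets with 0.50 and 0.32 over all arrays passed at 0.85 (adjusted p = 0.0383) and 0.63 (0.0275).

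Id2 (Entrez gene 15902) encodes a factor that lacks a DNA-binding region and holds E proteins away from DNA. Its brightest probe set gave 12.83, 12.53 and 13.02 in GFP-KLF2 arrays and 11.55, 12.09 and 12.73 in evGFP arrays. The evGFP arrays spread over more than a log2 unit, and evGFP replicate 3 lay above GFP-KLF2 replicate 2. The means of 12.79 ± 0.25 in GFP-KLF2 and 12.13 ± 0.59 in evGFP arrays differed by 0.67 (standard error 0.28, 95% confidence interval 0.02 to 1.32), which did not pass (limma adjusted p = 0.19, 0.0628 with the replicate block). The sign was the same in every pair (1.28, 0.44 and 0.28). A second probe set gave 0.60 (adjusted p = 0.2), and the dimmest 0.84 (0.29), which passed with the replicate block (0.0356). Without evGFP replicate 3, Id2 passed with 0.97 (adjusted p = 0.0317).

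Among the relatives of Id2, 2 of 3 rose, against 6.22% of all genes. Id1, an inhibitor of E proteins like Id2, gave 8.53, 8.69 and 8.94 in GFP-KLF2 arrays and 5.86, 6.04 and 7.13 in evGFP arrays. It rose by 2.37 (standard error 0.31, limma adjusted p = 0.0045) and passed with each array left out. Id3, which is linked to long-lived memory precursors, gave 10.73, 10.93 and 10.80 in GFP-KLF2 arrays and 10.21, 9.98 and 9.25 in evGFP arrays. It rose by 1.01 (standard error 0.23, adjusted p = 0.0299), and passed only without evGFP replicate 1 (0.0289) or 3 (0.0125) when arrays were left out in turn. In evGFP replicate 3, Id1 and Id2 were at the highest level of that group and Id3 at the lowest. Whether the changes of Id1, Id2 and Id3 differ from each other was not tested. The E proteins Tcf3, Tcf4 and Tcf12, the partners of ID factors, had log2 fold changes of -0.36 to -0.26 and did not pass, while Tcf3 passed with the replicate block (0.0393).

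Of the interferon regulatory factors in the set, Irf8 rose and Irf4 did not pass. The brighter probe set of Irf8 (Entrez gene 15900) gave 11.01, 10.85 and 10.87 in GFP-KLF2 arrays and 9.88, 10.17 and 10.51 in evGFP arrays. The other gave 10.81, 10.83 and 10.65 in GFP-KLF2 arrays and 9.66, 9.98 and 10.27 in evGFP arrays. In both, the groups were separate and the evGFP arrays spread more than the GFP-KLF2 arrays. Irf8, a partner of PU.1 and BATF factors, rose by 0.72 (standard error 0.15, 95% confidence interval 0.36 to 1.08, limma adjusted p = 0.0251) in the first probe set and by 0.80 (standard error 0.15, 95% confidence interval 0.44 to 1.15, adjusted p = 0.0166) in the second. The pairs differed by 1.13, 0.68 and 0.35 in the first. With single arrays left out, the first probe set passed only without evGFP replicate 3 (0.0082), with adjusted p of 0.0523 to 0.0866 otherwise. The second passed without GFP-KLF2 replicate 3 (0.0318), evGFP replicate 1 (0.0341) or evGFP replicate 3 (0.00809), but not without the others (0.0595 to 0.0612).

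Irf4 (Entrez gene 16364), whose product acts with BATF and JUN factors downstream of the antigen receptor, gave 11.01, 10.83 and 10.17 in GFP-KLF2 arrays and 11.59, 10.70 and 10.56 in evGFP arrays. The groups overlapped, and only the pairs with number 1 and 3 were lower with KLF2 (-0.58, 0.13 and -0.39). The log2 fold change of -0.28 had a 95% confidence interval of -0.998 to 0.44 and did not pass (limma adjusted p = 0.665), so that a fall to about the size of the Irf8 rise lies within the error. Without evGFP replicate 1, its highest array, the change of Irf4 was 0.0419. A dimmer probe set gave 7.10, 7.19 and 7.19 in GFP-KLF2 arrays and 7.36, 7.49 and 7.32 in evGFP arrays. All its GFP-KLF2 values were lower, but the change of -0.23 (95% confidence interval -0.42 to -0.05) did not pass either (adjusted p = 0.115).

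Of the other 6 measured IRF genes, 3 rose and 0 fell, against 6.22% and 8.35% of all genes. Irf7, a transcription factor of the type I interferon response, gave 8.97, 8.47 and 6.93 in GFP-KLF2 arrays and 6.34, 6.36 and 6.29 in evGFP arrays. The evGFP arrays were level, and GFP-KLF2 replicate 3 lay nearer to them than to its own group. The rise of 1.79 (standard error 0.45, limma adjusted p = 0.0445) passed only without GFP-KLF2 replicate 3 (0.000812) when arrays were left out in turn, with 0.101 to 0.135 otherwise. Irf9, a DNA-binding subunit of the ISGF3 complex, rose by 1.40 (adjusted p = 0.0136), and did not pass without GFP-KLF2 replicate 1 or 2 or evGFP replicate 2 (0.0468 to 0.0552). Irf2, an antagonist of Irf1, rose by 0.49 (adjusted p = 0.0395) and passed only without GFP-KLF2 replicate 3 (0.0205) among the single-array omissions. Irf1 had 0.91 (adjusted p = 0.048, 0.00628 with the replicate block).

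Of the Ikaros family, Ikzf3 (Entrez gene 22780) gave 10.18, 10.42 and 10.06 in GFP-KLF2 arrays and 9.44, 9.81 and 9.74 in evGFP arrays. The groups were separate, by a margin smaller than the spread within either. Ikzf3 was 1.47-fold higher in GFP-KLF2 arrays (log2 fold change 0.56, standard error 0.13, 95% confidence interval 0.25 to 0.86, limma adjusted p = 0.0345). It differed by 0.74, 0.61 and 0.33 in the pairs, but passed only without GFP-KLF2 replicate 3 (0.04) when arrays were left out, with 0.0604 to 0.101 otherwise. A second probe set gave 7.58, 7.74 and 7.56 in GFP-KLF2 arrays and 7.21, 7.44 and 7.49 in evGFP arrays, a change of 0.25 that did not pass (adjusted p = 0.178). The dimmest, near the lower quartile, gave 0.29 (adjusted p = 0.299).

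Ikzf2 (Entrez gene 22779) gave 8.27, 7.91 and 8.28 in GFP-KLF2 arrays and 7.92, 8.02 and 8.36 in evGFP arrays. The groups overlapped fully, and the log2 fold change was 0.05 (95% confidence interval -0.29 to 0.40, limma adjusted p = 0.885). A dimmer probe set, at 5.86, 5.42 and 5.78 in GFP-KLF2 arrays and 5.84, 5.93 and 6.23 in evGFP arrays, had -0.32 (adjusted p = 0.239), and the dimmest 0.20 (0.195). The signs of the 3 probe sets thus differed, and none passed. Of the 3 other Ikaros relatives 0 passed, with Ikzf4 at 0.56 (adjusted p = 0.127, 0.0449 with the replicate block).

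**Figure D2:**
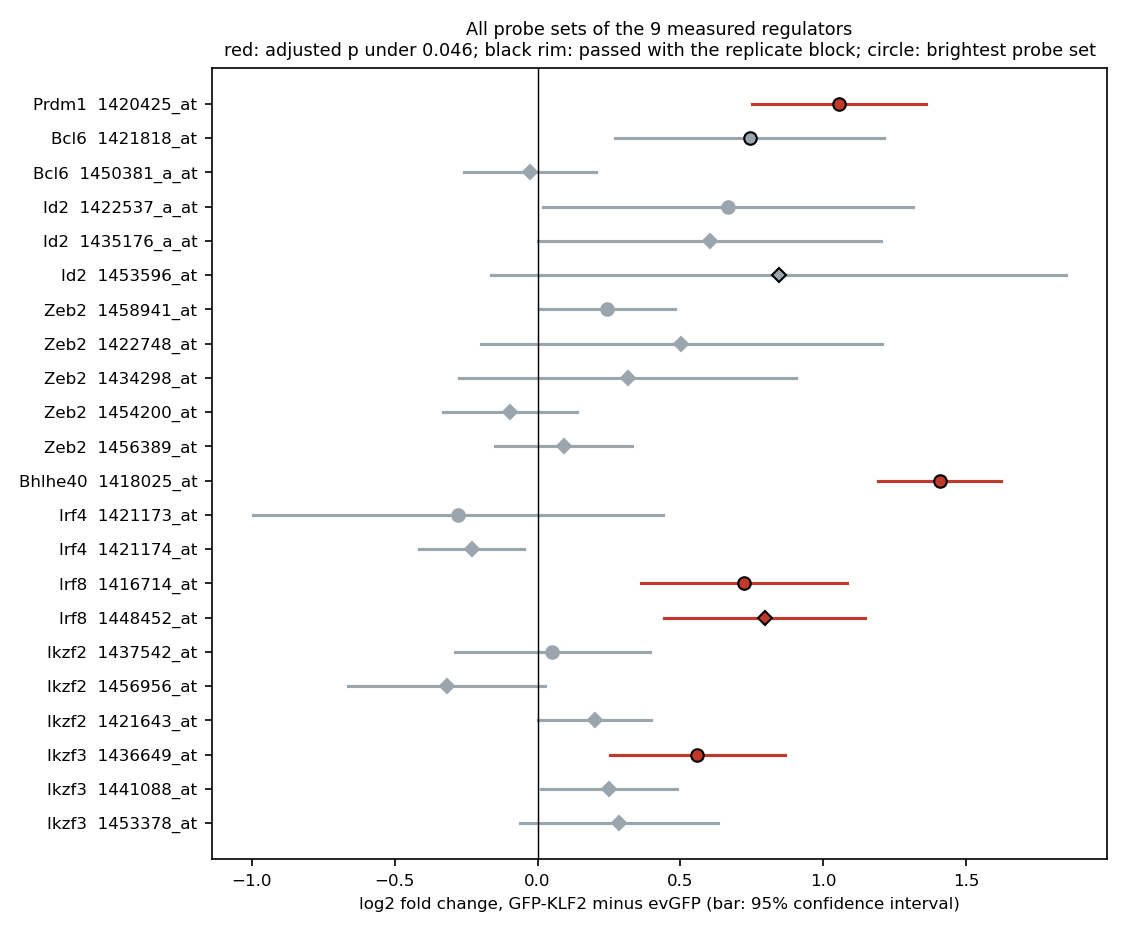
Log2 fold change with its 95% confidence interval (horizontal axis, GFP-KLF2 minus evGFP) for the 22 probe sets of the 9 genes. Red marks the 5 probe sets with an adjusted p under 0.046, a black rim the 7 that passed with the replicate block, circles the brightest probe set of a gene and diamonds the others. The probe sets of Irf8 lie side by side at 0.72 and 0.80, whereas those of Bcl6 lie apart at 0.74 and -0.03.

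Closeness to the threshold differed within the set. With the replicate block, 5 of 9 genes and 7 of 22 probe sets rose, against 8.58% of all genes and 6.73% of all probe sets, and the share of all genes that fell was 12.1%. The additional members were the brighter Bcl6 probe set and the dimmest Id2 probe set. Prdm1 (0.00377 with the block) and Bhlhe40 (0.000704) passed in either fit and under each omission of an array. Irf8, Ikzf3, Bcl6 and Id2 changed their call with at least 1 omission, whereas the brightest probe sets of Irf4, Ikzf2 and Zeb2 passed under none. By probe set, the number that rose was 9 without evGFP replicate 3 and 3 without evGFP replicate 1, and it was 2 without GFP-KLF2 replicate 1 or 2 or evGFP replicate 2. The share of all probe sets that rose under each omission is not given here.

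**Figure D3:**
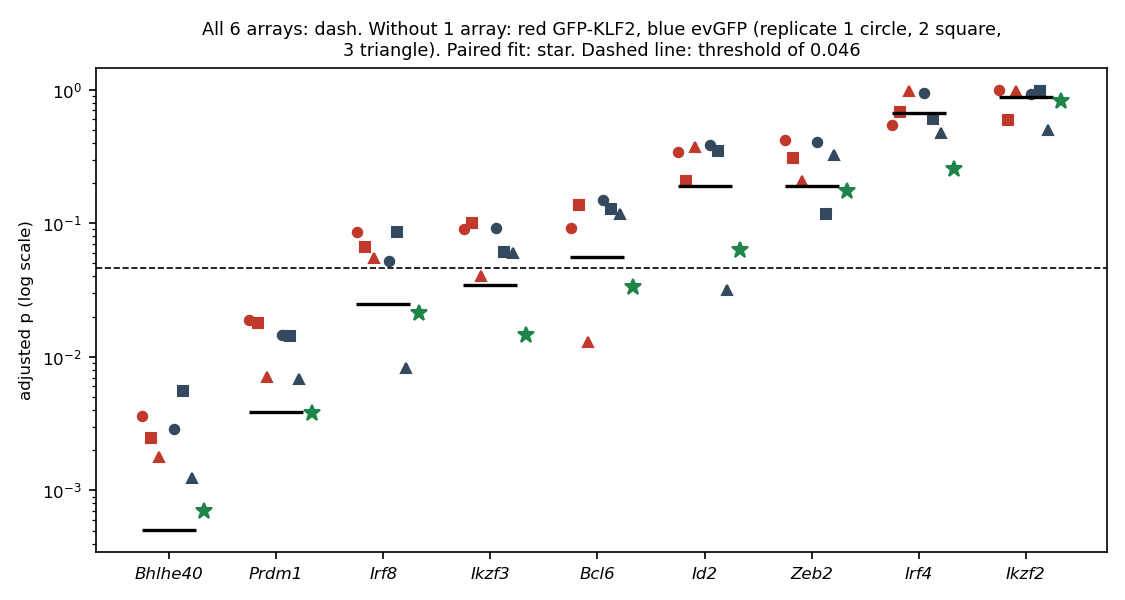
Limma adjusted p (vertical axis, log scale) of the brightest probe set of each gene with all 6 arrays (dash), with 1 array left out (red for GFP-KLF2 and blue for evGFP arrays, symbols by replicate number) and with the replicate block (green star). The dashed line marks 0.046. All values of Bhlhe40 and Prdm1 lie under the line, Irf8 and Ikzf3 each have 5 of 6 omissions above it, and Bcl6 and Id2 each have 1 of 6 below it.

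Among 29 measured family relatives of the listed genes, 6 rose and 0 fell, against 6.22% and 8.35% of all genes. With the replicate block 8 rose and 2 fell, against 8.58% and 12.1% of all genes. The median log2 fold change of the relatives was 0.01. Without GFP-KLF2 replicate 2 or evGFP replicate 2 the number that rose was 1, and it was 2 without GFP-KLF2 replicate 1 and 3 without evGFP replicate 1. Apart from Id1, Id3, Irf2, Irf7 and Irf9, Runx3 rose by 0.45 (limma adjusted p = 0.0225), and passed only without evGFP replicate 3 (0.0175) when arrays were omitted in turn. Runx3 directs the CD8 lineage and cytotoxic genes, and its second probe set did not pass (0.35, adjusted p = 0.568). The 8 other PR domain genes, the kin of Prdm1, had log2 fold changes of -0.32 to 0.14 and did not pass, although Prdm15 (-0.32) passed with the replicate block (0.0305). Bhlhe41, the closest relative of Bhlhe40, had 0.18, Bcl6b 0.01 and Zeb1 -0.17, none past the threshold. Whether a member and its relatives differ in their change was not tested.

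**Figure D4:**
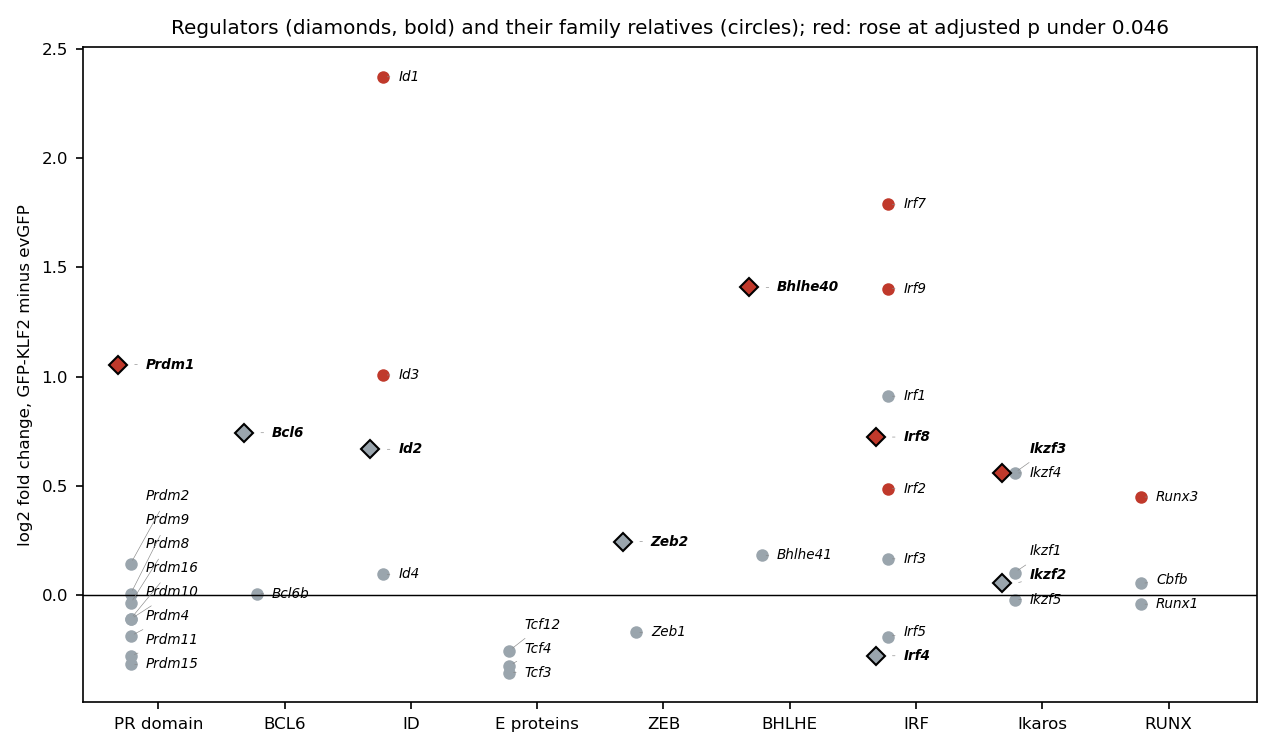
Log2 fold change (vertical axis, GFP-KLF2 minus evGFP, brightest probe set) of the 9 genes (diamonds, bold names) and 29 family relatives (circles), in columns by family. Red marks an adjusted p under 0.046. In the ID and IRF columns relatives rose beside the listed genes, with Id1 at 2.37 and Irf7 at 1.79, while the PR domain relatives of Prdm1 lie between -0.32 and 0.14.

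The cofactors through which these regulators act were measured for 27 of 29 listed genes, of which 2 rose and 5 fell, at a median of -0.17. Over all genes, 6.22% rose and 8.35% fell. With the replicate block 4 cofactors rose and 8 fell, against 8.58% and 12.1% of all genes. Tle3, a Groucho family corepressor that binds Blimp-1, gave 11.51, 11.46 and 11.56 in GFP-KLF2 arrays and 10.41, 10.44 and 10.70 in evGFP arrays. It rose by 1.00 (limma adjusted p = 0.00175). Of the 7 Blimp-1 partners in the list, 1 rose and 2 fell (1 and 4 with the replicate block), at a median of -0.30. Junb, an AP-1 subunit that joins BATF and IRF4 on DNA, gave 10.46, 10.27 and 10.32 in GFP-KLF2 arrays and 9.23, 9.21 and 9.10 in evGFP arrays, a rise of 1.17 (adjusted p = 0.000672). Tle3 and Junb both had groups far apart with little spread. Batf3, a partner of IRF4 and IRF8, gave 10.57, 10.54 and 9.87 in GFP-KLF2 arrays and 12.00, 11.32 and 11.02 in evGFP arrays. It fell by 1.12 on the log2 scale (adjusted p = 0.0406), and passed only without evGFP replicate 3 (0.0314) when arrays were omitted in turn. Mbd3, a subunit of the NuRD complex that works with Ikaros proteins, fell by 0.57 on the log2 scale (adjusted p = 0.00741). The number of cofactors that fell was 1 without evGFP replicate 2, 2 without GFP-KLF2 replicate 1 and 3 without GFP-KLF2 replicate 2 or evGFP replicate 1.

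Genes known as repressed by Blimp-1 in lymphocytes were measured for 11 of 12. Of these 3 rose and 0 fell, against 6.22% and 8.35% of all genes, with a median of 0.46. With the replicate block 6 rose and 0 fell, against 8.58% and 12.1% of all genes. Those that rose without the block were S1pr1, the receptor for egress from lymphoid tissue (2.00), Id3 (1.01) and Bach2, a repressor that restrains effector genes (0.52). The other 8 did not pass, and as the mean of its probe sets Bach2 had 0.31 and missed the threshold (limma adjusted p = 0.0587). The study names S1P1, encoded by S1pr1, as a known target of KLF2 in T cells. It also found S1P1 mRNA kept up in GFP-KLF2 cells by quantitative PCR. The part of Blimp-1 in these changes was not tested. Of 10 measured genes of 11 known as repressed by BCL6, 5 rose and 0 fell, with a median of 0.77. They were the activation marker Cd69 (1.38), Prdm1 itself, the adhesion receptor Cd44 (0.78), cyclin D2 (Ccnd2, 0.77) and the CDK inhibitor Cdkn1b (0.69, limma adjusted p = 0.0404, which missed the threshold with the replicate block at 0.0502). The number that rose was 3 without GFP-KLF2 replicate 1 or 2 or evGFP replicate 2, and 1 gene fell without evGFP replicate 1. Cd69 missed the threshold without GFP-KLF2 replicate 1 (0.0594) or 2 (0.0481) or evGFP replicate 2 (0.0654). Of 6 dimmer probe sets of Ccnd2 only 2 passed, and of 2 of Bach2 only 1. Both lists hold listed genes, and over all genes 6.22% rose and 8.35% fell.

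Cytokine receptors, JAK kinases and STAT factors that feed the set were measured for 21 of 23 genes. Of these 9 rose and 0 fell, at a median of 0.19, against 6.22% and 8.35% of all genes. The receptor for IL-6 (Il6ra, 3.39, and 0.83 by a dimmer probe set), the feedback inhibitor Socs3 (2.08), the receptor for IL-10 (Il10ra, 1.51) and the kinase Jak2 (0.99) had the largest rises. The other probe sets of Il10ra, both dimmer, did not pass (0.43, limma adjusted p = 0.135, and 0.21, adjusted p = 0.386). As the mean of all their probe sets, Il10ra rose by 0.72 and Il6ra by 2.11. The number was 6 without GFP-KLF2 replicate 1 or 2 and 5 without evGFP replicate 2. Of 25 measured other regulators of effector and memory CD8 T cells, 7 rose (6.22% of all genes) and 1 fell (8.35%), at a median of 0.14. Among those that passed, the largest changes were those of Klf3 (4.06, and 2.17 as the mean of its probe sets), Tbx21 (1.41), which encodes T-bet, Hopx (1.17) and Gata3 (1.06), and Myb, linked to self-renewal, fell by 0.58 on the log2 scale. Nr4a3 had a larger change than Tbx21 and Maf a larger one than Gata3, but neither passed. Nr4a3 had 1.56 (limma adjusted p = 0.0647, 0.0023 with the replicate block), against -0.14 and 0.14 in its dimmer probe sets, and Maf had 1.08 (0.384, 0.0392 with the block). With the replicate block 10 rose and 3 fell in this list, against 8.58% and 12.1% of all genes.

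Of the 9 CD8 T cell markers, Cd8b1 rose (0.45, limma adjusted p = 0.0107). Cd5 (-1.12, adjusted p = 0.0493) and Cd247 (0.39, 0.0481) did not pass, but did with the replicate block (0.00916 and 0.0189). Several of the regulators are also active in other blood cells, so the markers of such cells are given beside them. Over all genes 6.22% rose and 8.35% fell, so counts in marker lists this short are not read as a result about such cells. Of 9 B cell markers 0 passed, with summed intensities of 472 to 613 in GFP-KLF2 arrays and 438 to 494 in evGFP arrays (linear scale). Of these B cell markers, 3 lay at a mean log2 intensity of 6 or more, with Cd79b the highest at 7.20. Of 4 plasma cell markers, which share Prdm1, only the coactivator Pou2af1 rose (1.50), and the sums were 178 to 309 in GFP-KLF2 and 131 to 198 in evGFP arrays, with Sdc1, Jchain and Tnfrsf17 not past the threshold. Of 9 dendritic cell markers, a type in which Irf8, Id2, Batf3 and Zeb2 act, only Itgax rose (2.41), with sums of 2211 to 3087 in GFP-KLF2 and 1774 to 2105 in evGFP arrays, which do not overlap. Of the 9, Xcr1, Zbtb46 and Cd209a lay at mean log2 intensities of 4.06, 5.21 and 5.68, while the other 6 lay at 6 or more, with Siglech at 6.03, Flt3 at 6.37, Itgax at 6.73, Cd74 at 7.30, H2-Ab1 at 7.59 and Bst2 at 10.47. Bst2, by far the brightest, thus weighs most in the sums, and it did not pass (0.32, limma adjusted p = 0.36). Apart from Itgax and Bst2, the log2 fold changes were -0.21 (Cd74) to 0.16 (H2-Ab1). Of 9 myeloid markers 0 passed, with sums of 449 to 497 in GFP-KLF2 and 401 to 447 in evGFP arrays, also without overlap. Among them, Cd68 had 0.43 (limma adjusted p = 0.049) and passed with the replicate block (0.0252). Of the 3 NK cell markers 0 passed, and of the 4 CD4 and regulatory T cell markers 1, Zbtb7b, rose (0.45). The part of such cells in the regulators' values was not tested.

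For Prdm1, Bcl6 and Bhlhe40 the 3 genes most alike in pattern were sought among genes with a mean log2 intensity of at least 6. Likeness was the mean absolute difference over the 6 arrays, in log2 units, of values set relative to the evGFP mean of each gene, and no test was made. Nearest to Prdm1 were the granule protease Ctsg (0.059), Dennd1c (0.081) and the ceramide synthase Cers6 (0.084). Nearest to Bcl6 were Oas2, an interferon-induced antiviral synthetase (0.030), Spata13 (0.098) and Tnip1 (0.099). Oas2 had a log2 fold change of 0.77, which missed the threshold (limma adjusted p = 0.0493). It passed with the replicate block (0.0314) and without GFP-KLF2 replicate 3 (0.0188). That these calls match those of Bcl6 follows from how Oas2 was picked and is not a separate result. Nearest to Bhlhe40 were Prex1 (0.047), the membrane-binding protein Anxa2 (0.054) and the inhibitory receptor Lair1 (0.064). Bhlhe40 and its neighbours rose by 1.36 to 1.41, a closeness that likewise follows from how they were picked.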

How the data were processed

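RNA of 3 GFP-KLF2 and 3 evGFP samples, labelled as biological replicates, was measured on Affymetrix 3' expression arrays of the mouse genome. Where replicates did not come from separate cultures, p-values measure technical spread only. Background correction, quantile normalization and probe set summaries by RMA were made by the authors, and the deposited intensity values are linear (5.74 to 33638). The versions of RMA and limma that the authors used are not given in the sources used here. Here log2 was taken, 64 control probe sets were left out of 45101, and limma 3.58.1 in R 4.3.3 (with the package data.table, version 1.17.8) was fitted with 1 constant per group, 2-sided, with Benjamini-Hochberg adjustment over 45037 probe sets. An adjusted p under 0.046 was used, since the methods print 0.046% (as 2σ) while the study's gene list holds larger p-values. Each gene stands for its brightest probe set, among 34945 annotated to 1 gene. The fit was tested on simulated data drawn independently for each array, so that test does not cover a correlation between arrays of the same number.

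The members and lists were chosen with earlier results of these data known, so none of the lists is independent evidence. The rule was to name all listed genes with every probe set and all called family relatives. It added up to 4 called genes of each other list with the largest change. It also added the 3 nearest genes of Prdm1, Bcl6, Bhlhe40 and Runx2, but Runx2 was not measured. Cdkn1b, Irf1, Ikzf4, Tcf3, Prdm15, Bhlhe41, Bcl6b, Zeb1, Myb, Nr4a3, Maf and the marker genes are outside that rule, and their values were known when they were chosen for the text.

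Replicate numbers were checked for pairing. The deviations of same-numbered arrays from their group means had correlations of 0.33, 0.44 and 0.47, and those of differently numbered arrays -0.38 to 0.06. Deviations sum to 0 within a group, so these correlations are not independent of each other. The numbers were taken to pair the arrays from the data and not from the labels. Calls and intervals come from the fit without pairs unless the block is named, and a replicate block entered 1 alternative fit. The others were each array left out, other thresholds, scalings, filters and weights, and other probe set rules. A description of the proteins was not run, since no protein table was used here. The number of arrays limits the precision.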

Additional observations from a re-analysis of the deposited data

How the results depend on the processing

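Of the 9 genes, 4 rose under the scaling and filtering alternatives (medians, cyclic loess, quantile normalization, dim or cross-hybridising probe sets removed), the mean of probe sets or any probe set of a gene, and an adjusted p under 0.05, and 5 with the replicate block, an intensity trend with a robust prior, or array weights. The number was 2 at 2-fold or more, 2 with limma's treat against 1.2-fold, and 0 at an adjusted p under 0.00046, where 31 of all genes rose and 3 fell. Leaving out single arrays gave 2 to 4 genes. Of the 22 probe sets, 5 rose, against 7 with the replicate block, 2 at 2-fold or more, 2 with treat, 0 at 0.00046 and 2 to 9 with single arrays left out (9 without evGFP replicate 3). None of these alternatives made a listed gene fall.

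Signs changed for uncalled values near 0. Ikzf2 ranged from -0.0389 to 0.18 and Irf4 from -0.47 to 0.0419 with single arrays left out, the dimmer Bcl6 probe set from -0.0874 to 0.0564, and Ikzf2 was -0.0222 as the mean of its probe sets. The cause was not tested. The mean of both Bcl6 probe sets was 0.36 (limma adjusted p = 0.149). Over all genes 1131 rose and 1519 fell, 1388 and 961 after cyclic loess, under which the changes of Prdm1 (1.14), Bhlhe40 (1.49), Irf8 (0.82) and Ikzf3 (0.66) kept their calls. Low signal limits Zeb2, Bcl6 and the dimmest probe sets of Ikzf2 and Ikzf3.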
